A study of Mus musculus with 47 samples.

Results

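The genes described here are 18 protein-coding genes that were nearly silent in wild-type cranial neural crest at embryonic day E10.5 and measurable in all 4 facial subpopulations after loss of Ezh2. They were chosen from the read counts themselves, out of 22668 protein-coding genes in a table of 38215. A gene entered when its group mean was under 0.5 CPM (counts per 1e+06 counts of the library total without mitochondrial genes) in each of the 4 wild-type E10.5 groups and at 1 CPM or more in each of the 4 Ezh2cKO groups. These conditions were met by 41 genes. Of those, 23 were left out because their names start with any of 20 prefixes. The prefixes include Hox, Fox, Gata, Tbx and Zic, and also Hist, Col and Cdkn. The difference between Ezh2cKO and wild type at E10.5 is therefore how the genes were picked, and it is given below as a description without a test.

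The study profiled RNA of mouse cranial neural crest cells, which were dissected, dissociated and sorted by fluorescence. The 47 libraries form 16 groups. Wild-type (WT) groups were neural crest progenitors at E8.5 (NCCprogenitors, n = 3) and, at E10.5 and again at E11.5, cells of FNP (frontonasal process), Mx (maxillary process), Md (mandibular process) and PA2 (pharyngeal arch 2), each with n = 3 except Mx at E10.5 with n = 2. The Ezh2cKO groups, a conditional knockout of Ezh2, covered FNP, Mx, Md and PA2 at E10.5 with n = 3 each. HoxA2OE (overexpression of Hoxa2) was sampled in Md at E10.5, and in PA2 at E11.5 there were Hoxa2TempMut, a temporal knockout of Hoxa2, and a group named Control, again with n = 3 each. The labels name neither the strain, nor the driver of recombination or overexpression, nor the reporter used for sorting, nor whether replicates came from separate embryos, so p-values measure only the spread between these samples.

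Ezh2 is the catalytic subunit of Polycomb repressive complex 2 (PRC2), which methylates lysine 27 of histone H3. The mark is laid down over CpG-rich promoters of developmental genes and is bound by PRC1 complexes, and genes under it are kept at a low level until a tissue needs them. In the cranial neural crest, many positional and lineage regulators carry this mark together with marks of active chromatin. The genes described below are mostly not the textbook positional regulators, since those families were left out by name.

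Ezh2 itself checks the labels. Its level was 192 ± 23.3 CPM (SD) over 12 Ezh2cKO libraries, with a range of 158 to 223, and 480 ± 25.2 CPM (SD) over 11 wild-type E10.5 libraries, with a range of 445 to 542. RNA from the locus thus remained measurable in each Ezh2cKO library, and reads were summed over the whole gene, so the part removed by recombination is not resolved. Totals without mitochondrial genes ran from 13.9 to 38.5 M counts per library (M for 1e+06), so 1 CPM stands for about 14 to 39 reads. In the 23 libraries that the selection used, the 18 genes together hold 962 counts in wild type and 8267 in Ezh2cKO. All values rest on such low counts.

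Promoter windows of 300 bases, from 250 before to 50 after the annotated start, were found in RefSeq (GRCm38.p6) for 12 of the 18 genes. No entry was matched for Vax2, A230050P20Rik, Ripply3, H1fnt, Arc and Krt1. The windows below show the range among the genes, from the CpG-dense starts of Gdf10 and Pou3f2 to the CpG-poor starts of Ttc6 and Tchh. They read 5′ to 3′ on the strand of the gene, and capitals mark each CG dinucleotide. Gdf10 (chr14:33923337-33923636, plus strand) holds 42 of them, Pou3f2 (chr4:22488317-22488616, minus strand) 24, Ttc6 (chr12:57563865-57564164, plus strand) 6 and Tchh (chr3:93442080-93442379, plus strand) 1.
Gdf10: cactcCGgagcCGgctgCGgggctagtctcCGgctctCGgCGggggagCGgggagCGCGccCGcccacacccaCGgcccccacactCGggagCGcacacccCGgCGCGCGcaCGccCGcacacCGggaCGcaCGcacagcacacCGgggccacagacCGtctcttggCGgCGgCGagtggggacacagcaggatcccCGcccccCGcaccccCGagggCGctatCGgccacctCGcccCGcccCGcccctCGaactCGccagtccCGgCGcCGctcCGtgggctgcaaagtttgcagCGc
Pou3f2: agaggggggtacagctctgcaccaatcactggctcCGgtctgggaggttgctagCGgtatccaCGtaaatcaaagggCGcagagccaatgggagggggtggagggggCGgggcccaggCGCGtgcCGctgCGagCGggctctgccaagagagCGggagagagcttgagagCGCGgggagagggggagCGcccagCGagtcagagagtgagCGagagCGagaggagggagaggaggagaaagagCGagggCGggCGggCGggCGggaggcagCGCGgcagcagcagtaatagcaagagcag
Ttc6: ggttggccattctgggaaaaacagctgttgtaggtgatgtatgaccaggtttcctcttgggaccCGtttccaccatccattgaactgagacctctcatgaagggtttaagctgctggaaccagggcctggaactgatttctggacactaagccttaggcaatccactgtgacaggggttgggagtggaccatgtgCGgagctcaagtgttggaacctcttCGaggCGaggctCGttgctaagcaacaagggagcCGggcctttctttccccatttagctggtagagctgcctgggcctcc
Tchh: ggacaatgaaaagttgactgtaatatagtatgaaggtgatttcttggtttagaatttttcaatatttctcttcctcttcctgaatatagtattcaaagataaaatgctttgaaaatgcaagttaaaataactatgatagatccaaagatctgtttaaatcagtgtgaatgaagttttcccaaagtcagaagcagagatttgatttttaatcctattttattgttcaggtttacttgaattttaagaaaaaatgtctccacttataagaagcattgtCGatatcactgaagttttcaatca

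The selection used no sequence, but it did use expression, and the promoters are given as a description. Using the richest window of each gene, 9 of 12 (75%) were CpG-rich, meaning a GC content of at least 50% and an observed to expected CpG ratio of at least 0.6. The same held for 506 of 5163 protein-coding genes (9.80%) that were under 0.5 CPM in each wild-type E10.5 group, and for 50.6% of all 15197 protein-coding genes with an entry. The median observed to expected ratio was 0.820 in the 12, 0.197 in the low wild-type genes and 0.638 in all. Cnpy1 (1.05), Trank1 (1.04), Runx3 (1.01) and Gdf10 (0.960) had the highest ratios. Tchh (0.165), Ttc6 (0.277) and Zbtb8b (0.505) lay below the limit. Cnpy1, Runx3 and Kazald1 each have a second annotated start whose window was not CpG-rich, with ratios of 0.285, 0.264 and 0.589. The letters TATAAA were found on either strand in 0 of the 12 windows, against 24.7% of windows of the low wild-type genes and 12.6% of all windows.

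**Figure D1:**
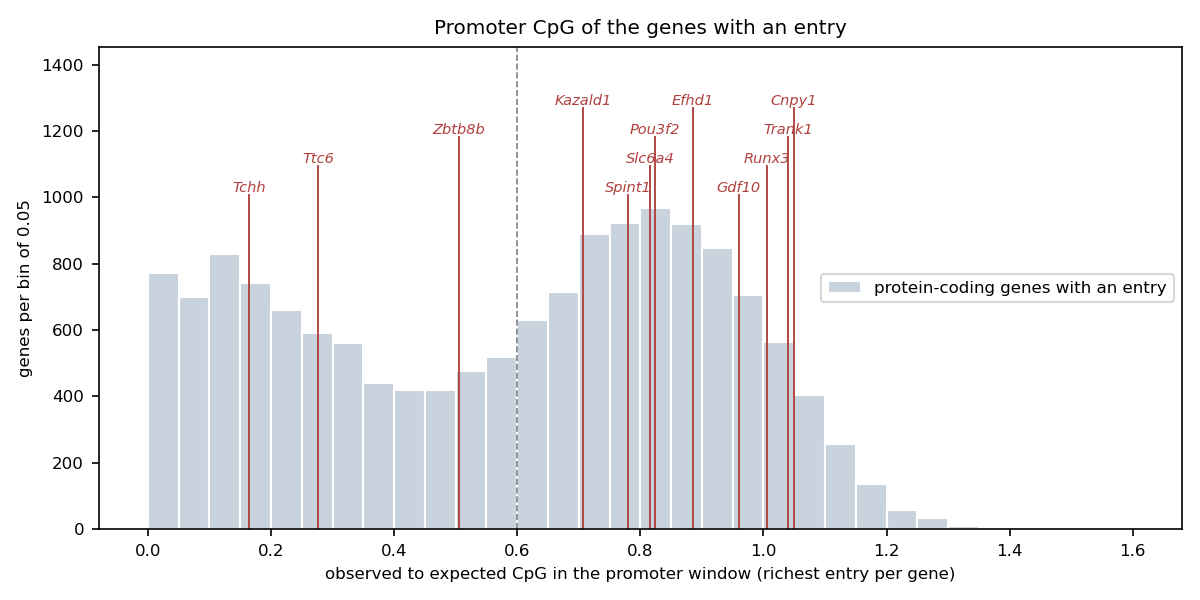
Number of protein-coding genes (y axis) by the observed to expected CpG ratio of their richest promoter window (x axis, bins of 0.05), with a red line for each of the 12 genes that have an entry; the dashed line marks the ratio of 0.6. The genes with entries cluster in the CpG-rich mode, and Tchh, Ttc6 and Zbtb8b lie left of the dashed line.

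Transcription factors and co-factors made up 5 of the 18 genes. Vax2 (chr6:83711264-83738304), a homeobox factor of the ventral eye, had the highest Ezh2cKO level. It had 3 counts in all wild-type E10.5 libraries together, with 8 of 11 libraries at 0 and a highest value of 0.0564 CPM. In Ezh2cKO its lowest, median and highest libraries were 3.35, 4.37 and 6.44 CPM, and the pooled ratio was 332 (95% counting interval 113 to 1614). The interval covers counting error only and is no test, since the rule used these libraries. The Ezh2cKO group means of Vax2 ran from 3.50 CPM in PA2 to 5.11 CPM in Mx, and the PA2 libraries lay below every Ezh2cKO library of the other groups.

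Pou3f2 (chr4:22482095-22488366), a POU-domain factor of neural progenitors, ran from 0 to 0.394 CPM in wild type (median 0.0564) and from 1.40 to 3.67 CPM in Ezh2cKO (median 2.34). The mean ratio was 23.0. Its highest wild-type values, 0.394 and 0.297 CPM, were those of the Mx libraries. Runx3 (chr4:135120652-135177990), a runt-domain factor known from sensory neurons, T cells and cartilage, ran from 0 to 0.429 CPM (median 0.169) in wild type and from 1.05 to 4.21 CPM (median 1.93) in Ezh2cKO, a mean ratio of 13.1. In both, the lowest Ezh2cKO library lay above 1 CPM and the highest wild-type library below 0.5 CPM.

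Ripply3 (chr16:94328420-94336935), a transcriptional co-repressor of the pharyngeal region, was less clearly silent. It ran from 0.210 to 0.834 CPM (median 0.395) in wild type and from 1.54 to 2.39 CPM (median 1.93) in Ezh2cKO, a mean ratio of 4.73. Zbtb8b (chr4:129425765-129440853), a zinc-finger protein with a BTB domain, ran from 0.212 to 0.537 CPM (median 0.389) and from 1.16 to 2.19 CPM (median 1.61), a mean ratio of 4.13. The gap between genotypes was narrower in both than in Vax2 or Pou3f2.

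Secreted, membrane and signalling proteins made up 5 genes. Cnpy1 (chr5:28200819-28245792), a canopy-family protein linked to fibroblast growth factor signalling at the midbrain-hindbrain boundary, had 0 counts in 7 of 11 wild-type libraries, and its highest wild-type value was 0.322 CPM in Mx. In Ezh2cKO it ran from 2.22 to 7.42 CPM (median 4.20), with group means from 2.86 in FNP to 5.59 in Mx. Gdf10 (chr14:33923587-33935280), a TGF-beta family ligand also known as BMP3b, ran from 0 to 0.573 CPM (median 0.177) in wild type and from 0.780 to 3.65 CPM (median 1.48) in Ezh2cKO. The lowest Ezh2cKO value came from PA2 and the highest from Mx.

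Spint1 (chr2:119237362-119249527), a membrane-bound inhibitor of serine proteases in epithelia, ran from 0.0358 to 0.529 CPM in wild type and from 1.40 to 2.53 CPM in Ezh2cKO, with medians of 0.132 and 2.04 CPM. Slc6a4 (chr11:76998603-77032340), the serotonin transporter, ran from 0 to 0.524 CPM and from 1.17 to 2.89 CPM, with medians of 0.123 and 2.13 CPM. Kazald1 (chr19:45075241-45079289), a secreted protein with a Kazal domain, ran from 0 to 0.350 CPM and from 0.468 to 1.93 CPM, with medians of 0.177 and 1.23 CPM. The ratios of the means were 11.4, 10.0 and 6.98. Kazald1 came nearest to overlap in this group of genes, through a single PA2 library at 0.468 CPM.

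Structural, chromatin and other proteins made up the remaining 8. Tchh (trichohyalin, a protein of the inner root sheath of hair; chr3:93442330-93449077) had wild-type and Ezh2cKO means of 0.182 and 1.85 CPM, and Krt1 (a keratin of differentiating epidermis; chr15:101845428-101850786) of 0.430 and 1.10 CPM. H1fnt (a linker histone of the testis; chr15:98255982-98257307) had means of 0.234 and 1.89 CPM, with 5 of 11 wild-type libraries at 0 and the highest at 0.769 CPM. Arc (an activity-regulated cytoskeletal protein of neurons; chr15:74669083-74672570) had means of 0.421 and 1.34 CPM. The smallest ratios of the 18 were those of Krt1 (2.56) and Arc (3.19).

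Efhd1 (a calcium-binding protein of mitochondria; chr1:87264363-87310839) had means of 0.258 and 1.61 CPM. Trank1 (chr9:111311739-111395774), Ttc6 (chr12:57564113-57737928) and A230050P20Rik (chr9:20868642-20874307) had Ezh2cKO means of 2.07, 2.07 and 2.25 CPM, from wild-type means of 0.227, 0.322 and 0.382 CPM. Their names give repeat domains (Trank1, Ttc6) or a clone name only.

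In all 18 genes, the lowest of the 12 Ezh2cKO libraries lay above the highest of the 11 wild-type E10.5 libraries. The rule works on group means of the same libraries, so nothing is read from this count. The same separation was seen in 1.97% of protein-coding genes with a count and in 0.787% of the 8389 genes that were low in wild type. The narrowest gap was that of Krt1, with 0.562 CPM in the highest wild-type and 0.578 CPM in the lowest Ezh2cKO library. Per kilobase of exon, the Ezh2cKO level was highest in Vax2 (3.72 CPM per kb), H1fnt (1.42) and Ripply3 (1.27) and lowest in Trank1 (0.197), and it was under 1 CPM per kb in 15 of 18 genes.

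**Figure D2:**
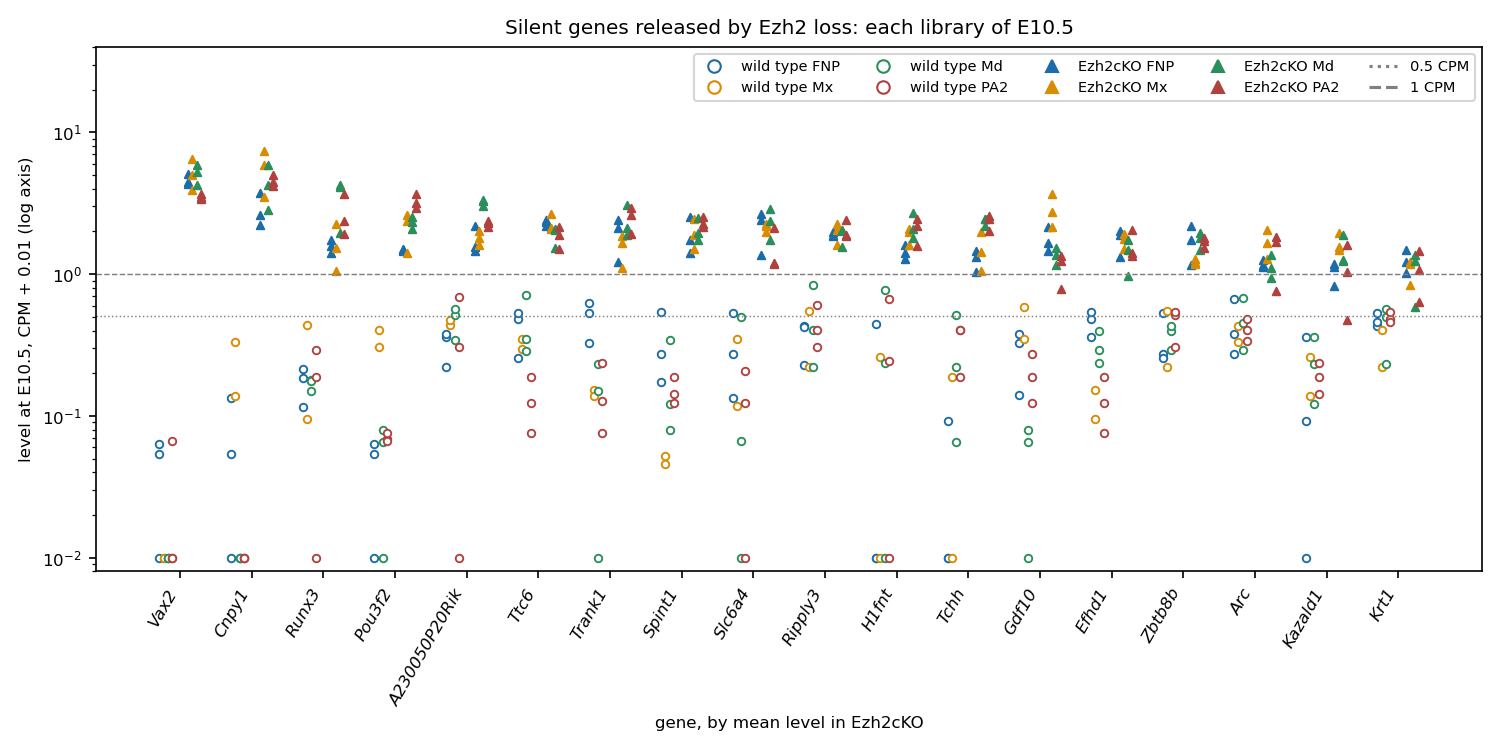
Level of each of the 18 genes (x axis) in the E10.5 libraries, as CPM + 0.01 on a log axis: open circles are the 11 wild-type and filled triangles the 12 Ezh2cKO libraries, coloured by subpopulation, and points at the bottom are libraries with 0 counts. Each gene's triangles lie above its circles, by the widest margin in Vax2 and the narrowest in Krt1; the dotted and dashed lines mark 0.5 and 1 CPM.

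The thresholds cut through a continuum. Just inside the wild-type limit were Trank1, Krt1 and Ripply3, with highest wild-type group means of 0.486, 0.484 and 0.479 CPM, and just outside were Fam163a (0.502), Arhgef19 (0.503) and Gdf7 (0.514). Just inside the Ezh2cKO limit were Kazald1, Krt1 and Gdf10, with lowest Ezh2cKO group means of 1.03, 1.05 and 1.12 CPM, and just outside were Spata18 (0.985), Hhex (0.984) and Zyg11a (0.984). Of the 8389 low wild-type genes, 8280 reached 1 CPM in 0 Ezh2cKO groups, 43 in 1, 27 in 2, 21 in 3 and 18 (0.215%) in 4. Among the 21 genes that reached it in 3 groups, the missing group was FNP for 14, Mx for 4, Md for 3 and PA2 for 0. With the genotypes exchanged, the same thresholds were met by 0 genes.

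Cell type markers were summed beside these values. Markers of crest mesenchyme (10 genes such as Prrx1, Twist1 and Pdgfra) summed to 1630 to 2439 CPM in wild type and to 1686 to 2473 CPM in Ezh2cKO, so the labelled cell type was read in both genotypes. Neuron and glia markers (12 genes) summed to 30.4 to 490 CPM (median 32.9) and to 65.0 to 813 CPM (median 77.9), with the highest sums in Mx of both genotypes. Epithelial markers (10 genes) summed to 3.56 to 23.4 CPM (median 5.67) and to 13.8 to 22.5 CPM (median 18.6). Of these, Epcam had means of 2.44 and 5.98 CPM, Krt18 of 1.45 and 4.05 CPM and Cdh1 of 0.575 and 0.398 CPM, while Krt14 had 0 counts in all 23 libraries.

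Endothelial markers (10 genes) summed to 6.27 to 14.4 CPM in wild type and 10.1 to 21.0 CPM in Ezh2cKO, erythroid markers (8 genes) to 32.3 to 568 and 26.1 to 492 CPM, leukocyte markers (10 genes) to 11.2 to 17.1 and 13.2 to 19.1 CPM, and muscle markers (9 genes) to 1.01 to 4.15 and 1.79 to 6.06 CPM. Immediate early genes (8 genes, a list added after the data were seen because Arc belongs to that class) summed to 33.0 to 92.3 and 71.6 to 121 CPM. The part that neuronal, epithelial or other cells have in the levels of the 18 genes was not tested. In bulk samples, fewer cells of a type and less RNA per cell cannot be told apart.

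Ezh2cKO libraries also differed from wild type in other Polycomb genes, a check on the model that lies outside the selection. Of 32 measured genes of PRC2, PRC1 and the demethylases of the mark, 7 were called higher and 9 lower at an adjusted p under 0.05 (edgeR quasi-likelihood test with Benjamini-Hochberg adjustment over 20560 genes), where 30.8% of all genes were called (16.1% higher and 14.7% lower). Ezh2 fell by 1.41 ± 0.05 on the log2 scale (SE, adjusted p = 4.08e-24). Among the genes that rose were Bmi1 (log2 1.45 ± 0.06), Phf19 (1.45 ± 0.17), Pcgf5 (0.80 ± 0.15) and Ring1 (0.32 ± 0.10), of which Phf19 is a PRC2 partner and the other three are PRC1 subunits. The other log2 values called lower were smaller, at -0.28 for Eed and -0.19 for Suz12, the core partners of Ezh2, and between -0.25 and -0.13 for Mtf2, Pcgf6, Rbbp4, Rbbp7, Kdm2b and Aebp2. Scaling by TMM shifted all log2 differences of this comparison by -0.0843 relative to the totals used for CPM, and Suz12 lost its call under 21 of 29 other settings. The median over the 32 was -0.05, against -0.02 over all genes. With DESeq2-type size factors, 7 were called higher and 6 lower.

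The nearest protein-coding gene on each side gives 36 neighbours, of which 24 passed the filter on low counts. Of these 24, 7 were called higher in Ezh2cKO and 3 lower, beside 16.1% and 14.7% of all genes. A neighbour that is low in wild type passes that filter only through groups where it is higher, so nothing is read from the count. En2, an engrailed homeobox gene 27.2 kb from Cnpy1, had 0 counts in wild type and 573 in Ezh2cKO (2.77 ± 1.55 CPM, SD, n = 12). Foxa1, a forkhead factor 17992 bases from Ttc6, had means of 0.0144 and 0.862 CPM, and Tlx1, a homeobox gene 69.9 kb from Kazald1, of 0.0268 and 0.486 CPM. Zbtb8a, a relative 47.6 kb from Zbtb8b, had means of 1.72 and 5.37 CPM, without overlap between the genotypes. Sfxn3, on the other side of Kazald1, had means of 8.90 and 16.3 CPM. The remaining neighbours called higher were Zfp641 beside H1fnt (0.515 and 1.16 CPM) and Dclk3 beside Trank1 (0.0968 and 0.319 CPM).

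A minimum of 10 CPM in wild type was chosen after the values were seen. Sfxn3, which was called higher, lies just under it at 8.90 CPM. Among the 14 neighbours at or above the minimum, 0 were called higher and 3 lower, beside 16.1% and 14.7% of all genes. Nothing is read from this count, since the minimum left Sfxn3 out. The log2 differences of the 14 ran from -0.19 to 0.10. The called genes were Rbm33 next to Cnpy1 (202 and 197 CPM, log2 -0.12, adjusted p = 0.0315), Blmh next to Slc6a4 (177 and 168 CPM, log2 -0.16, adjusted p = 0.0287) and Eif4e2 next to Efhd1 (78.8 and 73.0 CPM, log2 -0.19, adjusted p = 6.35e-05), all by edgeR. The TMM shift of -0.0843 relative to the totals used for CPM is part of each of these log2 values. Hlcs next to Ripply3 had means of 29.0 and 29.2 CPM. Pou3f2 has no protein-coding gene within 48.0 kb on one side and 2008 kb on the other. The sources do not say how reads were counted where genes overlap, so the levels of such genes are uncertain. Vax2 shares 938 bases with the antisense Vax2os2 (0 and 0.243 CPM), and Ttc6 spans 32628 bases of the antisense 4921518K17Rik (0.0998 and 0.629 CPM). A230050P20Rik shares 499 bases with Angptl6 (0.308 and 0.489 CPM), and Runx3, Slc6a4 and Efhd1 overlap antisense genes that stayed under 0.1 CPM.

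**Figure D3:**
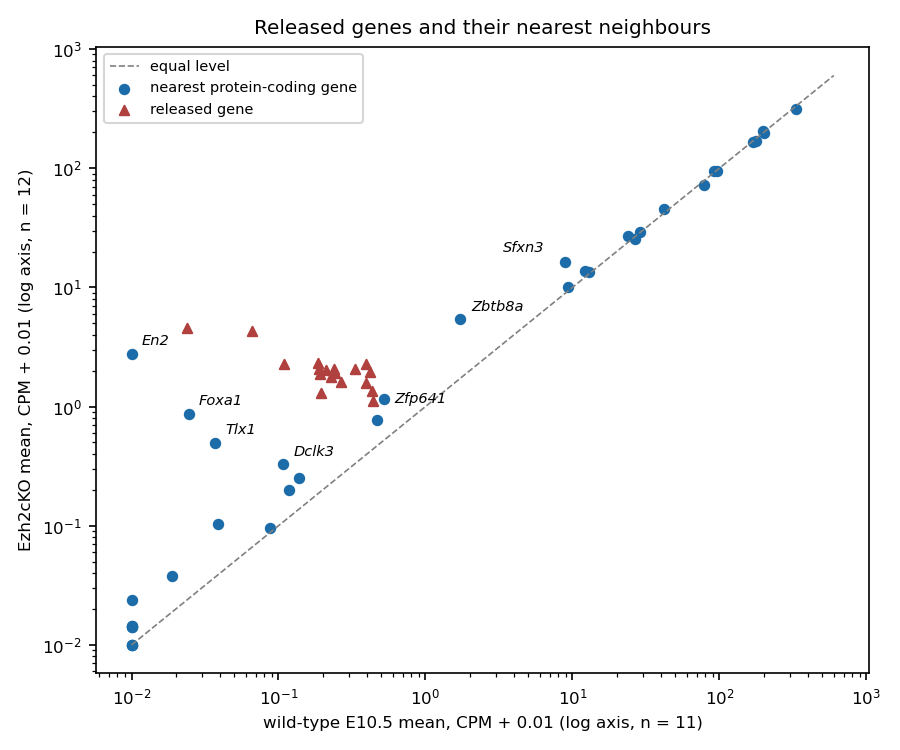
Mean level in Ezh2cKO (y axis, n = 12) against wild-type E10.5 (x axis, n = 11), both as CPM + 0.01 on log axes, for the 18 genes (triangles) and the nearest protein-coding gene on each side (circles); the dashed line marks equal levels. Neighbours at 10 CPM or more in wild type, a minimum chosen after the values were seen, lie near the line. En2, Foxa1, Tlx1, Zbtb8a, Zfp641, Dclk3 and Sfxn3 (labelled) were called higher and lie above the line.

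Levels in the 4 Ezh2cKO subpopulations are given as a description, because the rule used these libraries and its floor of 1 CPM kept out genes that are low in any of the groups. The fit called 2 of the 18 genes different among the groups, Runx3 and Pou3f2, where 27.7% of all genes were called, and for the same reason nothing is read from this count. Runx3 was at 4.11, 4.21 and 1.94 CPM in Md and at 2.34, 3.66 and 1.92 CPM in PA2, against 1.56, 1.40 and 1.74 CPM in FNP and 1.53, 2.23 and 1.05 CPM in Mx. The Md libraries lay above those of FNP, and overlapped those of Mx and PA2.

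Pou3f2 was at 3.67, 3.18 and 2.91 CPM in PA2 and at 1.46, 1.50 and 1.45 CPM in FNP, without overlap between these 2 groups. Mx (2.36, 1.40 and 2.59 CPM) and Md (2.50, 2.32 and 2.08 CPM) lay between them or, in a single Mx library, below FNP. Gdf10 had its highest mean in Mx (2.85 CPM) and its lowest in PA2 (1.12 CPM). Over the 18 genes, the ratio of the highest to the lowest Ezh2cKO group mean ran from 1.09 in Ripply3 to 2.55 in Gdf10, a range that the floor limits.

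The selection used neither E8.5 nor E11.5, and many of the genes were read in the wild-type libraries of those stages. At E8.5, 9 of 18 (50%) had a mean of 1 CPM or more, against 2.83% of the 8389 low wild-type genes. The 2 sets are not alike: the low genes had a median of 0 CPM at E8.5, while the 18 had to be read in 4 Ezh2cKO groups. The highest of the 18 were Pou3f2 (35.3, 35.5 and 36.5 CPM), Spint1 (21.4, 19.5 and 19.6 CPM), Gdf10 (15.2, 16.0 and 11.7 CPM), Cnpy1 (16.5, 10.3 and 13.3 CPM) and Zbtb8b (4.63, 3.89 and 3.84 CPM). Each of these progenitor levels exceeded the highest Ezh2cKO library of the same gene. Vax2, the gene with the highest Ezh2cKO level, had 3 counts at E8.5 and 2 counts in the 12 E11.5 libraries.

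Markers of other cell types also differed between these stages. Crest mesenchyme markers summed to 268 to 342 CPM at E8.5 and to 2556 to 3948 CPM at E11.5. Erythroid markers summed to 714 to 1223 CPM at E8.5 and to 34.4 to 99.9 CPM at E11.5, epithelial markers to 190 to 233 and 5.33 to 28.0 CPM, and endothelial markers to 215 to 237 and 14.9 to 50.7 CPM, all 3 higher in every E8.5 library than in any E11.5 library. Neuron and glia markers summed to 156 to 169 and 53.7 to 225 CPM, leukocyte markers to 9.97 to 16.2 and 8.15 to 14.99 CPM, and muscle markers to 7.16 to 8.502 and 1.17 to 18.0 CPM, with overlap between the stages. The part of these cell types in the levels at E8.5 and E11.5 and in the stage differences was not tested.

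In any of the 4 E11.5 wild-type groups, 5 of 18 had a mean of 1 CPM or more, against 2.07% of the low wild-type genes. The limit on this background given for E8.5 holds here too. The 5 genes were Gdf10 (28.4 CPM in Mx), Runx3 (8.99 in Mx), Slc6a4 (1.97 in FNP), Zbtb8b (1.68 in PA2) and Krt1 (1.09 in FNP). Gdf10 and Runx3 exceeded their Ezh2cKO range there, while the mean of Slc6a4 lay within it.

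Between E8.5 and E11.5 the genes were compared over the mean of the 4 E11.5 groups on the log2 scale. Of the 18, 3 were called higher at E11.5 and 12 lower, in a comparison where 72.5% of all genes were called (34.6% higher and 37.8% lower). The median log2 difference was -1.79 over the 18 and -0.02 over all genes tested. The 18 were picked for low levels in the same 4 subpopulations at E10.5, and the genes of the background were not. Nothing is therefore read from these counts or from the median. Scaling by TMM placed these log2 differences 0.125 below those from the totals used for CPM. Cnpy1 fell by 7.71 ± 0.32 (SE, adjusted p = 2.24e-22), from 13.4 ± 3.06 CPM (SD, n = 3) to 0.0676 ± 0.0799 CPM (SD, n = 12). Pou3f2 fell by 7.27 ± 0.17 (adjusted p = 6.16e-32), to between 0.0432 and 0.671 CPM in the 12 E11.5 libraries. Spint1 fell by 5.89 ± 0.21 (adjusted p = 7.25e-26) and Ripply3 by 4.55 ± 0.31 (adjusted p = 8.44e-17), and for these 4 genes no E11.5 library reached the lowest E8.5 library.

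Efhd1 (-3.86), Zbtb8b (-2.10), Arc (-1.86), Ttc6 (-1.81), Tchh (-1.49) and Gdf10 (-0.67) were also called lower. For Gdf10 the mean CPM hardly differed, at 14.3 ± 2.28 CPM (SD, n = 3) at E8.5 and 13.3 CPM at E11.5, where the 12 libraries ran from 3.54 to 39.3 CPM. H1fnt and Vax2 were called lower on almost no reads. H1fnt had 8 counts at E8.5 and 0 in the 12 E11.5 libraries, where the 95% counting interval of the ratio of E8.5 to E11.5 starts at 4.86, and without E8.5 replicate 3, which held 7 of the 8 counts, it was not called. For Vax2 the pooled ratio of E8.5 to E11.5 was 4.27 (95% counting interval 0.489 to 51.1).

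The 3 genes that rose were Runx3 (log2 5.02 ± 0.41, adjusted p = 3.24e-14), Kazald1 (2.69 ± 0.66, adjusted p = 3.81e-04) and Trank1 (1.36 ± 0.53, adjusted p = 0.0212). Runx3 went from 0.0282, 0.105 and 0.130 CPM at E8.5 to between 0.173 and 11.01 CPM at E11.5, with every E11.5 library above every E8.5 library. Kazald1 and Trank1 stayed under 1.1 CPM in every library at both stages.

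At E11.5 itself, 9 of 18 genes were called different among the 4 wild-type subpopulations (background 29.4%). The 18 were picked for low levels in the same subpopulations at E10.5, so nothing is read from this count. Vax2 and H1fnt, with 2 and 0 counts at E11.5, are among the 18. Runx3 was at 7.60, 7.89 and 11.01 CPM in FNP, 9.30, 7.37 and 10.3 CPM in Mx, 3.73, 3.22 and 3.99 CPM in Md and 0.468, 0.557 and 0.173 CPM in PA2 (adjusted p = 2.85e-13). FNP and Mx overlapped, and both lay above Md, which lay above PA2. In Ezh2cKO at E10.5 the order of the means was another, with Md (3.42 CPM) and PA2 (2.64 CPM) above Mx (1.60 CPM) and FNP (1.56 CPM), and the difference between the 2 orders was not tested.

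Gdf10 was at 30.2, 15.6 and 39.3 CPM in Mx, 15.5, 11.8 and 18.8 CPM in FNP, 3.55, 3.54 and 6.47 CPM in Md and 5.78, 4.22 and 4.27 CPM in PA2 (adjusted p = 9.55e-10). Mx and FNP overlapped each other and lay above Md and PA2, which also overlapped. Slc6a4 was at 1.35, 1.65 and 2.90 CPM in FNP and under 0.5 CPM in every library of Mx, Md and PA2 (adjusted p = 1.61e-06). Tchh ran from 0 to 0.0647 CPM in FNP and from 0.173 to 0.636 CPM in PA2 (adjusted p = 0.0222). Pou3f2, Spint1, Zbtb8b, Krt1 and Ttc6 were also called, with adjusted p from 8.90e-04 to 0.0497. Without FNP replicate 2, 5 genes were called, and a fit on only the E11.5 groups also called 5.

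**Figure D4:**
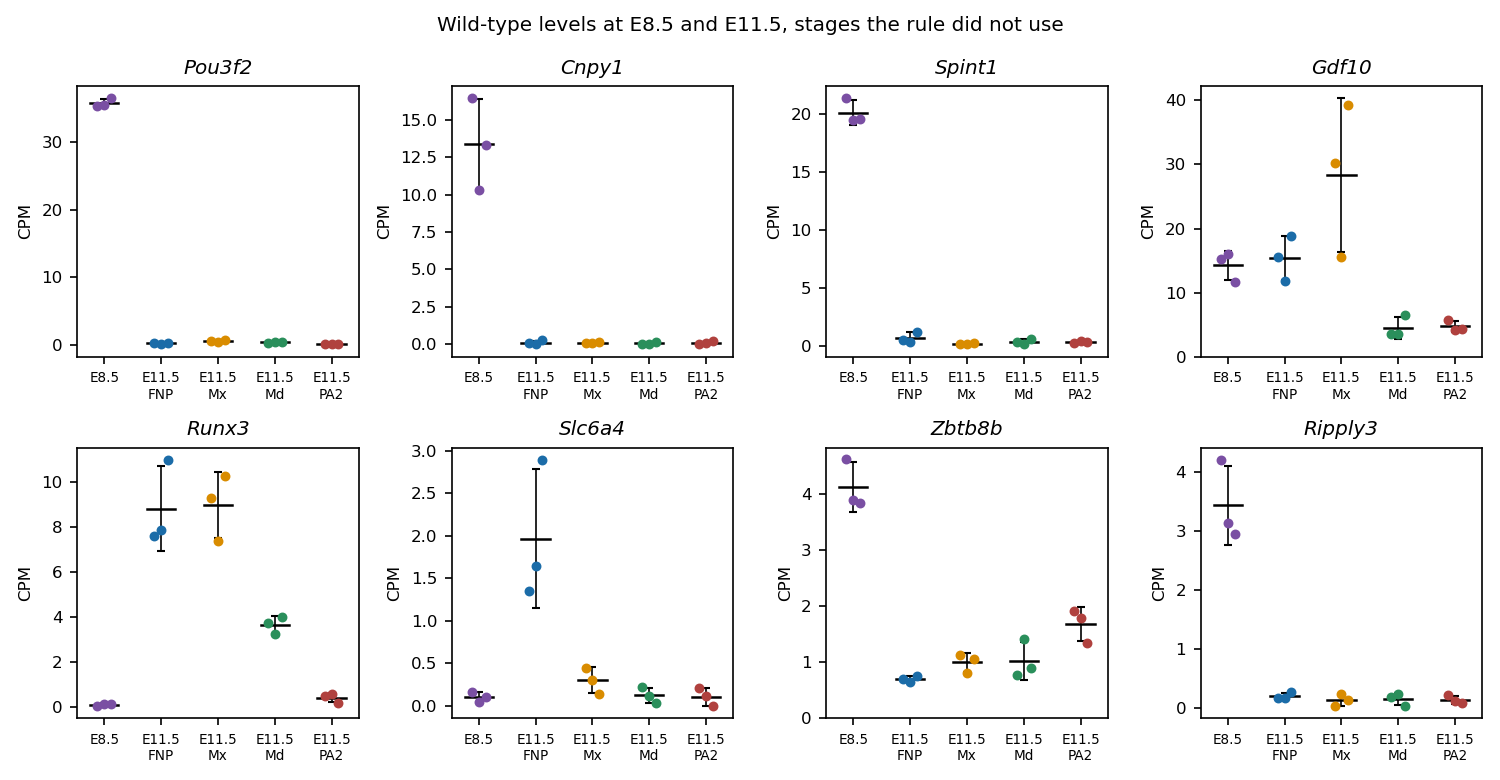
Wild-type CPM (y axes, linear and scaled per gene) of 8 genes at E8.5 and in the 4 E11.5 subpopulations (x axes); points are libraries (n = 3 per group), black bars the mean and error bars the SD. Pou3f2, Cnpy1, Spint1 and Ripply3 are read at E8.5 and near 0 at E11.5, while Runx3, Gdf10 and Slc6a4 differ among the E11.5 subpopulations.

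The Hoxa2 genotypes were not used by the selection either. In HoxA2OE, 1 of 18 genes (5.56%) had a mean of 1 CPM or more, against 0.107% of the low wild-type genes. That gene was Ripply3, at 0.550, 1.84 and 1.15 CPM, beside 0.393, 0.834 and 0.210 CPM in wild-type Md, and the libraries overlapped. Here too the 2 sets are not alike, with medians in HoxA2OE of 0.138 CPM in the 18 and 0 in the low genes. Nothing is read from 1 gene. The next highest in HoxA2OE were Zbtb8b (0.451 CPM), A230050P20Rik (0.350), Krt1 (0.316) and Slc6a4 (0.255). No test was made against wild-type Md, since the genes were picked for low values there.

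Between Hoxa2TempMut and Control in PA2 at E11.5, edgeR called 0 of 18 genes (background 0.623%, of which 0.258% higher and 0.365% lower), and DESeq2 called 0. With so low a background, nothing is read from this count, and H1fnt had 0 counts in both groups. In edgeR, 2 genes were at an unadjusted p under 0.05. These were Efhd1 (0.246, 0.418 and 0.241 CPM against 0, 0.115 and 0.177 CPM in Control) and Spint1 (0.176, 0.190 and 0.103 CPM against 0.727, 0.192 and 0.283 CPM). Their log2 differences were 1.61 ± 0.65 (adjusted p = 0.552) and -1.30 ± 0.56 (adjusted p = 0.636). Arc was at 1.38, 1.50 and 1.87 CPM in Control and 1.37, 0.836 and 1.03 CPM in Hoxa2TempMut. The immediate early list that Arc's class belongs to summed to a mean of 341 and 339 CPM in these groups, against 137 CPM in wild-type PA2 at E11.5.

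**Figure D5:**
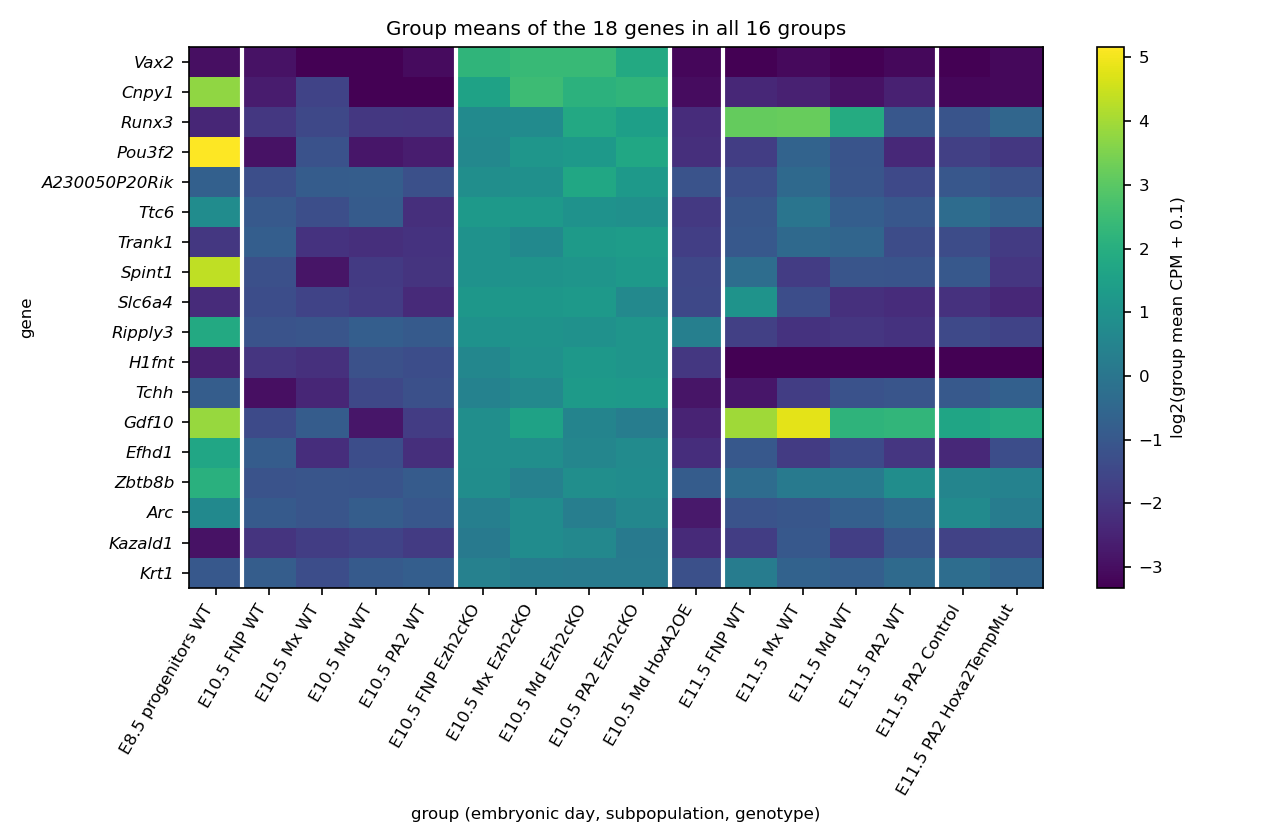
Group means of the 18 genes (rows, by Ezh2cKO level) in the 16 groups (columns), coloured by log2(mean CPM + 0.1), with white lines between stages and genotypes. The Ezh2cKO columns are among those the rule used, the E8.5 column holds the highest values of Pou3f2, Cnpy1 and Spint1, and the E11.5 columns those of Gdf10 and Runx3.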

How the data were processed

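The authors' deposited table holds raw read counts per gene for 47 libraries, per the file headers. Libraries were unstranded (ScriptSeq v2, single ends of 50 bases), per the labels' protocols, and the submitters' processing notes name bcl2fastq 2.17 and the build GRCm38. The sources used here give no aligner, counter or annotation release. Some columns (22) were repeated with identical values and were used once.

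CPM was computed from library totals without mitochondrial genes, which took 11.5% to 45.9% of counts. Tests used edgeR 4.0.16 in R 4.3.3 with TMM scaling (factors 0.514 to 1.16), filterByExpr by group (20560 genes left, all 18 genes among them) and 1 quasi-likelihood model of all libraries with a mean per group (31 residual degrees of freedom). Benjamini-Hochberg adjustment ran over all genes tested, and calls are at an adjusted p under 0.05. The scripts were tested on simulated data. Alternatives were DESeq2 1.42.0, other scaling, no filter, only the groups compared, the replicate number as a block and leaving out each library. Ratios have 95% counting intervals, and these and the floor of 3 counts cover counting error only.

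Named genes were the 10 with the highest Ezh2cKO level, up to 4 per role list and per tested comparison, the 5 highest at E8.5, E11.5 and in HoxA2OE, and those nearest the thresholds; the others are given as members of the set. The rule, the lists and the tests were chosen with earlier results of these data known. Promoters came from RefSeq.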

Additional observations from a re-analysis of the deposited data

How the results depend on the processing

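Membership was sensitive to the rule's settings. With a wild-type limit of 0.25 CPM 3 genes were left, with an Ezh2cKO limit of 2 CPM 2 (Vax2 and Cnpy1), and with the limits applied to every library 4 (Vax2, Cnpy1, Runx3 and Pou3f2). With mitochondrial genes in the total the rule gave 17 genes, of which 10 were shared, and with TMM-scaled totals 18, of which 11 were shared. Arc, Efhd1, Gdf10, Kazald1, Krt1, Tchh and Zbtb8b were lost with both totals, and H1fnt with mitochondrial genes in the total. Leaving out each of 23 libraries gave 15 to 20 genes, at least 15 of them shared, with 15 without Mx wild-type replicate 2 or Md wild-type replicate 2. Vax2 and Cnpy1 met the rule under every setting run.

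Fitting only the groups compared gave 5 calls among the Ezh2cKO subpopulations in place of 2 and 5 among the E11.5 subpopulations in place of 9. Leaving out each library gave 1 to 2 calls among the Ezh2cKO subpopulations, 5 to 9 among the E11.5 subpopulations, 12 to 15 between E8.5 and E11.5, 0 for Hoxa2TempMut and 13 to 16 for the Polycomb genes. The other settings gave 14 to 15 calls between the stages and 12 to 18 for the Polycomb genes. No called value changed sign. Trank1 and Gdf10 were not called between the stages without E8.5 replicate 1 or without replicate 2, and the call on Vax2 was lost under 15 of 20 settings. Among the E11.5 subpopulations, Krt1 lost its call under 10 of 18 settings and Ttc6 under 9, while Runx3, Gdf10, Slc6a4 and Pou3f2 kept theirs under all 18. Suz12 lost its call under 21 of 29.

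The labels do not say whether replicate numbers pair the samples. Correlations of same-numbered libraries ran from -0.04 to 0.21 in Ezh2cKO (median 0.04, against -0.02 for libraries of other numbers). At E11.5 they ran from -0.10 to 0.30 (median -0.03, against -0.05). Whether same-numbered libraries share embryos cannot be told from these values. With the replicate block, the calls were 2, 9, 14, 0 and 16 for the Ezh2cKO subpopulations, the E11.5 subpopulations, the stages, Hoxa2TempMut and the Polycomb genes. At 14 to 39 reads per CPM, levels under 0.5 CPM rest on few reads.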
